A study of Mus musculus with 6 samples.

Results

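The genes described here encode subunits of the BAF chromatin remodeling complexes and the CHD family of chromatin remodeling ATPases in mouse ESCs and in cells differentiated from them with retinoic acid (RA). They were taken by symbol from the RNA-seq table: the Smarca to Smarce, Actl6, Dpf, Ss18, Bcl7, Bcl11, Brd7, Brd9, Pbrm1, Arid and Chd genes. The symbols matched 44 genes among the 23235 entries of the table, which carry 22969 distinct names. Of the 44 genes, 39 reached at least 1 FPKM in either condition, as did 13293 entries of the whole table. The symbol pattern also took 7 ARID3 to ARID5 genes, which are not BAF subunits, and the ISWI ATPases Smarca1 and Smarca5. It missed the BAF subunits Arid2, Phf10, Gltscr1, Gltscr1l and Actb, which are given among the partner genes.

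RNA-seq, which the paper describes as mRNA sequencing, was done on 2 states of 1 mouse ESC line, E14Tg2a, at passages 37 to 40. The pluripotent ESCs (3 samples) were kept with leukemia inhibitory factor (LIF). The RA-induced neuronal cells (NCs; 3 samples) were monolayers without LIF that received 1 µM RA for 48 h. LIF removal and RA treatment cannot be told apart in this design. The deposited table holds a single FPKM (fragment count divided by transcript length and by the number of mapped fragments) per gene and condition, estimated from the 3 samples together. No value per sample is given, so no spread between samples was computed, and the test columns of the authors' own comparison in that table were not used. Every ratio is therefore a description of the 2 values, with no test. Where a pair of levels follows without a state, the ESC level is first. The header of the RA column reads FPK and was taken as FPKM.

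BAF complexes, the mammalian form of SWI/SNF, use an ATPase to slide or evict nucleosomes, and several of their positions can be filled by alternative paralogs. Exchange of these paralogs is a known feature of neural development: pluripotent cells use a form rich in Smarca4, Smarcc1, Actl6a, Dpf2 and Ss18, whereas postmitotic neurons use Actl6b, Dpf1 or Dpf3 and Ss18l1. CHD proteins carry paired chromodomains and a helicase-like ATPase. They include the ATPases of the NuRD deacetylase complex and CHD7, which is required in neural crest and neural progenitors.

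Markers were read first to see which states the 2 columns hold. All 7 pluripotency markers were more than 2-fold lower in NCs, with the core factor Pou5f1 at 832 in ESCs and 37.1 FPKM in NCs. All 5 RA response genes and 4 of 5 neural progenitor markers were more than 2-fold higher, including Pax6 at 3.64 FPKM in ESCs, compared with 65.2 FPKM in NCs. None of the 9 neuron markers was counted as higher. Of the 7 that reached 1 FPKM, 4 were lower (Tubb3, Syp, Elavl3 and Neurod1), and the summed level of the list was 58.6 FPKM in ESCs against 14.0 FPKM in NCs. The postmitotic marker Rbfox3 was at 1.11 in ESCs and 0.832 FPKM in NCs, and Dcx at 0.0140 FPKM and 0.334 FPKM. The NC values thus come from cells with progenitor markers and without a higher level of neuron markers. Primitive endoderm markers were also higher (5 of 6, summed level 16.9 FPKM in ESCs, compared with 39.3 FPKM in NCs). Whether other cells were present, and what part they had in the values below, was not tested. In bulk RNA fewer cells of a type and less RNA per cell cannot be told apart.

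Among the 39 genes that reached 1 FPKM, 5 were at least 2-fold higher in NCs (Dpf3, Smarca2, Arid1b, Chd3 and Smarcc2) and 4 were at least 2-fold lower (Arid5b, Chd9, Chd5 and Dpf1). These are 12.8% and 10.3% of the 39 genes. Over all 13293 entries past the same filter, 12.5% were at least 2-fold higher and 10.6% at least 2-fold lower, so without a pseudocount the share of remodeler genes past the limit was near that of the transcriptome. Another 30 genes stayed within 2-fold, of which 23 stayed within 1.5-fold (59.0% of the 39 genes, against 60.0% of all entries). The median log2 ratio of NC to ESC FPKM was 0.14 for the 39 genes and -0.03 for all entries. The summed FPKM of the NC column was lower (628679 against 770592 in ESCs). Rescaling both columns to the same total added 0.29 to every log2 ratio. On that scale 9 remodeler genes were higher and 3 lower, against 17.7% higher and 7.37% lower of all entries. The genes added were Chd7 and Smarce1 (log2 ratio 1.24 each), Arid3a (1.12) and Brd9 (1.03). With a pseudocount of 1 FPKM all 5 higher genes came inside the limit, with log2 ratios of 0.79 to 0.96, and of the lower genes Arid5b and Chd9 stayed past it. Of all entries 8.08% were higher and 7.33% lower on that scale, so there the share of remodeler genes (0 and 2 of 39) was below that of the transcriptome, and no test of either difference was made. Just inside the limit as deposited were Chd7 (1.93-fold higher) and Smarce1 (1.93-fold higher), and just outside were Dpf1 (2.02-fold lower) and Smarcc2 (2.04-fold higher).

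**Figure D1:**
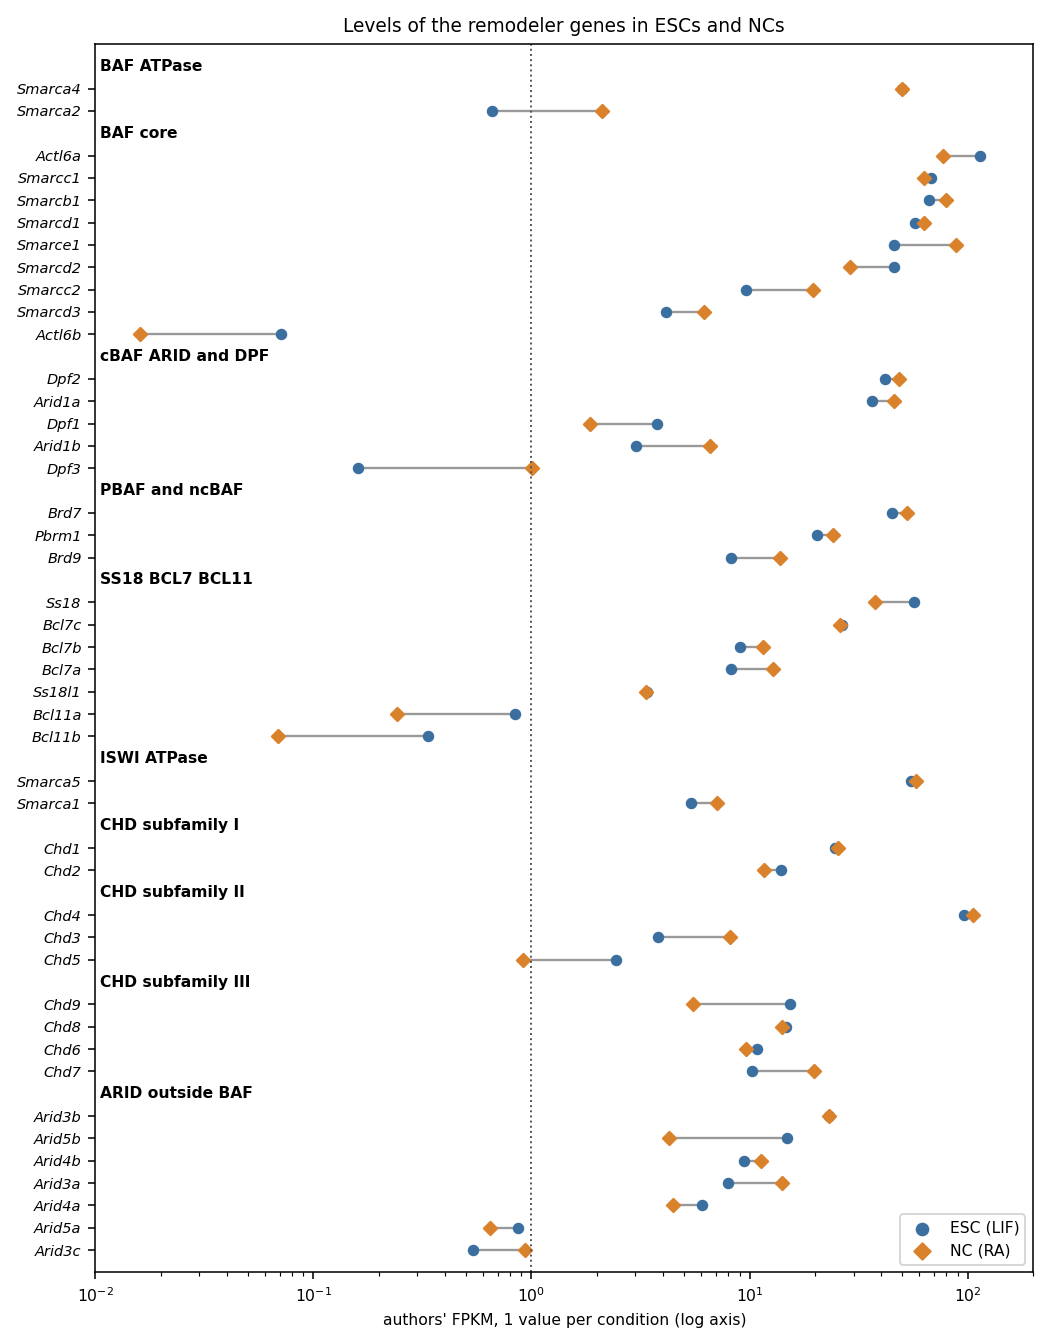
FPKM of each of the 44 genes in ESCs (circles) and NCs (diamonds), 1 value per condition on a log axis, grouped by role and with a dotted line at 1 FPKM. Most genes above 30 FPKM, such as Smarca4 at 50.1 and 50.2 FPKM, had close values in the 2 conditions, while Dpf3, Smarca2, Arid5b and Chd9 lay far apart.

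The genes past the limit lay mainly at low expression. The 11 genes with a mean FPKM under 10 over the 2 conditions included 4 of the 5 higher and 3 of the 4 lower genes (63.6%), where 34.8% of all entries at that level were past 2-fold. Of these 7, Dpf3, Smarca2 and Chd5 passed the 1 FPKM filter only through the condition where they were higher, so the filter itself favours large ratios at low levels. In the class from 10 to under 30 FPKM, 1 of 15 genes was higher and 1 was lower (13.3%, against 13.9% of all entries). None of the 13 genes with a mean of at least 30 FPKM was past 2-fold, where 11.0% of all entries were. The median absolute log2 ratio was 1.08 in the lowest class and 0.234 in the highest, against 0.642 and 0.337 for all entries. The highest class holds the ATPases Smarca4, Chd4 and Smarca5 and most of the BAF core.

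**Figure D2:**
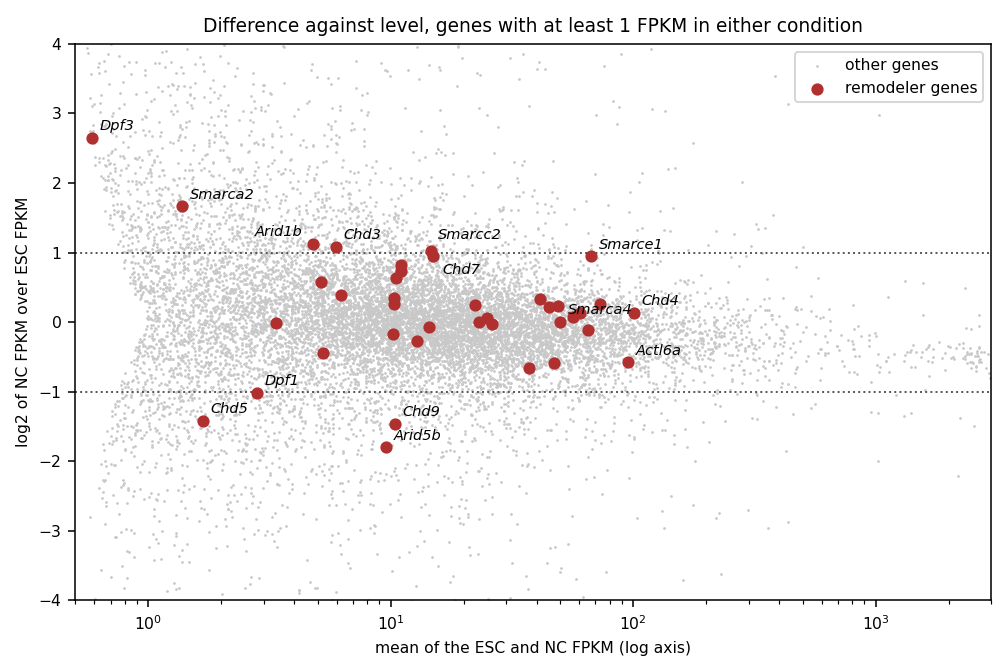
Log2 of the NC over the ESC FPKM against the mean FPKM of the 2 conditions (log axis) for entries with at least 1 FPKM in either condition, with the remodeler genes in red, dotted lines at 2-fold and entries beyond the plotted range not drawn. The genes past 2-fold were on the left, and those of at least 30 FPKM lay between the lines.

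The promoters of 4 genes that differed are shown, the 2 with the largest ratios among the higher genes (Dpf3 and Smarca2), the higher gene with the highest level (Smarcc2) and the gene with the largest lower ratio (Arid5b). Each run is 300 bases of RefSeq promoter on GRCm38.p6, from 250 before to 50 after the annotated start, written along the strand of the gene. Capitals mark matches on either strand to the core motif of retinoid and related nuclear receptors, AGGTCA. They also mark the Sp1 type motif GGGCGG, where present, and the motif of the TATA-binding protein, TATAAA.
Dpf3, chr12:83487687-83487986, minus strand: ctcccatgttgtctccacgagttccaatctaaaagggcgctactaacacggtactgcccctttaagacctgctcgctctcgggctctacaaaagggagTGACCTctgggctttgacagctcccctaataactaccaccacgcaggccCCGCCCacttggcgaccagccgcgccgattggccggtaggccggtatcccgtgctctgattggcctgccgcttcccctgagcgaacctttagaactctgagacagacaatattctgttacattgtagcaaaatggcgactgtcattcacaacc
Smarca2, chr19:26604910-26605209, plus strand: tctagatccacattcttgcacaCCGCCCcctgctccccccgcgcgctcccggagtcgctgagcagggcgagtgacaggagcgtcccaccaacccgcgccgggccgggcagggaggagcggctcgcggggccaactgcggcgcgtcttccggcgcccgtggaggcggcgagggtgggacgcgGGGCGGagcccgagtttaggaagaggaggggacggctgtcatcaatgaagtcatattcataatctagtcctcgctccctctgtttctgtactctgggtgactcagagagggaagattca
Smarcc2, chr10:128458986-128459285, plus strand: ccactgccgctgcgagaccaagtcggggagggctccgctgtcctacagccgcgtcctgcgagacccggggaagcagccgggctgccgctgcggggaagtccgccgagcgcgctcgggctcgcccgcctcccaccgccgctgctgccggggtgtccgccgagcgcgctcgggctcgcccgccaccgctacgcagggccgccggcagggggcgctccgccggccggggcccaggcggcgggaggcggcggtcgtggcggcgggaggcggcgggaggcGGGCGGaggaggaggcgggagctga
Arid5b, chr10:68278677-68278976, minus strand: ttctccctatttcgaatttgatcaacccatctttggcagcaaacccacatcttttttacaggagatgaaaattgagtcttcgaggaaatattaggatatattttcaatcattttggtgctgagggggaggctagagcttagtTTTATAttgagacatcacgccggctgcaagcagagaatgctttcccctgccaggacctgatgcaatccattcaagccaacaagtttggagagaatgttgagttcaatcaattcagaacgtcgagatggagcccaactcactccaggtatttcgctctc

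Promoter windows were found for 35 of the 44 genes, 41 windows in all, and most were CpG-rich. Their median GC content was 66.0% and their median observed to expected CpG ratio 0.860, against 52.7% and 0.384 over 32851 windows of the same length. AGGTCA, searched on both strands, was present in 1 of the 41 windows (2.44%), that of Dpf3 at base 99 of the printed run, and in 16.3% of all windows. GGGCGG was present in 35 windows (85.4%, against 35.7% of all). TATAAA was present in 3 windows (7.32%, against 13.6% of all), those of Arid5b, Bcl11b and Smarcd2. A further 4 motifs were searched in the same way. The ETS motif CCGGAAG was in 14.6% of the windows (8.86% of all) and the cAMP response motif TGACG in 36.6% (20.8% of all). The box CCAAT was in 31.7% (37.4% of all) and the POU octamer ATGCAAAT in 2.44% (1.74% of all). Motifs were counted separately and may overlap. The windows were not matched for GC content, and how far the motif shares follow it was not tested. Each match describes the letters of the window and is not evidence of binding.

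The BAF ATPase position was filled almost wholly by Smarca4 in both states. Smarca4, which encodes BRG1, was at 50.1 FPKM in ESCs against 50.2 FPKM in NCs. Smarca2 (chr19:26605050-26778322), which encodes the alternative ATPase BRM, was at 0.663 in ESCs and 2.101 FPKM in NCs, 3.17-fold higher (log2 ratio 1.66). Its share of the summed ATPase FPKM was 1.31% in ESCs and 4.01% in NCs, so the higher Smarca2 level left Smarca4 with 96.0% of the sum. Shares within a position compare genes of 1 column and do not depend on the scaling between columns.

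In the BAF core, 1 of the 8 genes that reached 1 FPKM passed 2-fold. Smarcc2 (chr10:128459248-128490482), which encodes the scaffold protein BAF170, was at 9.63 FPKM in ESCs, compared with 19.6 FPKM in NCs (2.04-fold, log2 ratio 1.03). Its paralog Smarcc1, which encodes BAF155 of the ESC complex, was at 67.7 FPKM and 62.8 FPKM. Smarcc2 thereby made up 12.5% of the summed FPKM of the pair in ESCs and 23.8% in NCs, while that sum was 77.3 FPKM and 82.4 FPKM.

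The DNA-bending HMG subunit Smarce1 (BAF57) had the highest ratio among the abundant core genes, at 45.9 FPKM in ESCs against 88.4 FPKM in NCs. It ranked 9 of the 44 genes by level in ESCs and 2 in NCs. Of the 50-base words in its transcripts, 15.0% also occur in the gene model Gm8494, so its level carries that uncertainty. Smarcb1, the core subunit SNF5, was at 66.4 FPKM and 79.8 FPKM.

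Among the BAF60 paralogs, which link the complex to transcription factors, Smarcd1 was at 57.4 in ESCs and 63.1 FPKM in NCs. Smarcd2 was at 45.8 FPKM in ESCs, compared with 29.0 FPKM in NCs, 1.58-fold lower. Smarcd1 therefore held 53.5% of the BAF60 sum in ESCs and 64.2% in NCs, and Smarcd2 42.7% and 29.5%. Smarcd3, best known from cardiac and muscle development, was at 4.15 FPKM and 6.17 FPKM. Its exons overlap those of Chpf2 on the opposite strand over 48.2% of their bases, and Chpf2, named here for that overlap after its values were seen, was at 2.46 FPKM and 6.42 FPKM. Whether the counting used strand is not given in the sources used here, so reads of the pair in the overlapping part may not have been told apart.

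The actin-related position showed no sign of the neuronal paralog. Actl6a (BAF53a), the form of proliferating cells, was the most abundant of the 44 genes in ESCs at 115 FPKM, and it was at 76.8 FPKM in NCs, 1.49-fold lower. Actl6b (BAF53b), the form of postmitotic neurons, was at 0.0714 FPKM in ESCs against 0.0161 FPKM in NCs. The depth of the libraries is not in the table. Low FPKM values of single-transcript genes were multiplied by the transcript length in kb, less an assumed fragment length of 200 bases. The products clustered at a step of 0.0138 in ESCs and at steps of 0.00715 and 0.0135 in NCs, each read as 1 fragment. The smaller NC step held more values (137, against 58 at the larger). At the larger NC step the Actl6b value corresponds to about 3.46 fragments on its longest transcript, near a floor of 3 fragments. The number would be larger at the smaller NC step, so its distance from the floor is uncertain, and no fold is given. Actl6a held over 99% of the sum in both states. Its exons overlap those of Mrpl47 on the opposite strand over 11.6% of their bases, so its level carries that uncertainty.

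In the DPF position, whose PHD fingers read acetylated and methylated histone tails, 1 paralog was higher and 1 was lower. Dpf2 (BAF45d), the widely expressed form, was at 41.7 in ESCs and 48.4 FPKM in NCs. Dpf3 (chr12:83213745-83487716; BAF45c) was at 0.161 FPKM in ESCs, compared with 1.01 FPKM in NCs, 6.28-fold higher (log2 ratio 2.65), so it passed the 1 FPKM filter only through its NC value. Dpf1 (chr7:29303951-29318243; BAF45b) was at 3.76 FPKM in ESCs against 1.86 FPKM in NCs, 2.02-fold lower. The paralogs of neuronal complexes thus lay in opposite directions, and Dpf2 made up 91.4% of the position in ESCs and 94.4% in NCs. The Dpf1 ratio fell inside the limit when the ratios were centred on the median gene (log2 -0.96) and when the columns were rescaled to the same total (-0.72).

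Of the ARID subunits of canonical BAF, Arid1a (BAF250a), which is needed for ESC self-renewal, was at 36.4 in ESCs and 45.9 FPKM in NCs. Arid1b (chr17:4994332-5347656; BAF250b), a gene mutated in Coffin-Siris syndrome, was at 3.002 FPKM in ESCs, compared with 6.57 FPKM in NCs, 2.19-fold higher (log2 ratio 1.13). Its share of the pair was 7.61% in ESCs and 12.5% in NCs. Arid1a remained the main form in both states.

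Of the subunits of the other BAF assemblies, the 3 matched by symbol stayed within 2-fold as deposited. Gltscr1l of the non-canonical complex, given among the partner genes, was 2.76-fold lower. Pbrm1, the polybromo subunit of PBAF, was at 20.4 FPKM in ESCs against 24.2 FPKM in NCs, and Brd7, the bromodomain subunit of the same complex, at 44.9 FPKM and 52.8 FPKM. Brd9, which marks the non-canonical complex, was at 8.23 in ESCs and 13.7 FPKM in NCs (1.67-fold). After rescaling to the same total Brd9 passed 2-fold (log2 1.03).

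Among the accessory subunits, Ss18, a transactivator of the ESC complex, was at 56.6 FPKM in ESCs, compared with 37.7 FPKM in NCs, 1.502-fold lower. Ss18l1 (CREST), its counterpart in neurons, was at 3.40 FPKM and 3.37 FPKM. Ss18l1 made up 5.66% of the pair in ESCs and 8.21% in NCs, a shift carried by the lower Ss18 value. The BCL7 proteins bind the ATPase module. Bcl7a was at 8.27 FPKM in ESCs against 12.8 FPKM in NCs, Bcl7b at 9.03 FPKM and 11.5 FPKM, and Bcl7c at 26.5 FPKM and 26.0 FPKM, so Bcl7c stayed the main paralog with 60.5% and 51.7% of the sum. The zinc finger genes Bcl11a and Bcl11b, active in cortical neurons and lymphoid cells, were under 1 FPKM in both states. Bcl11a was at 0.844 in ESCs and 0.241 FPKM in NCs, and Bcl11b at 0.336 FPKM and 0.0690 FPKM.

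**Figure D3:**
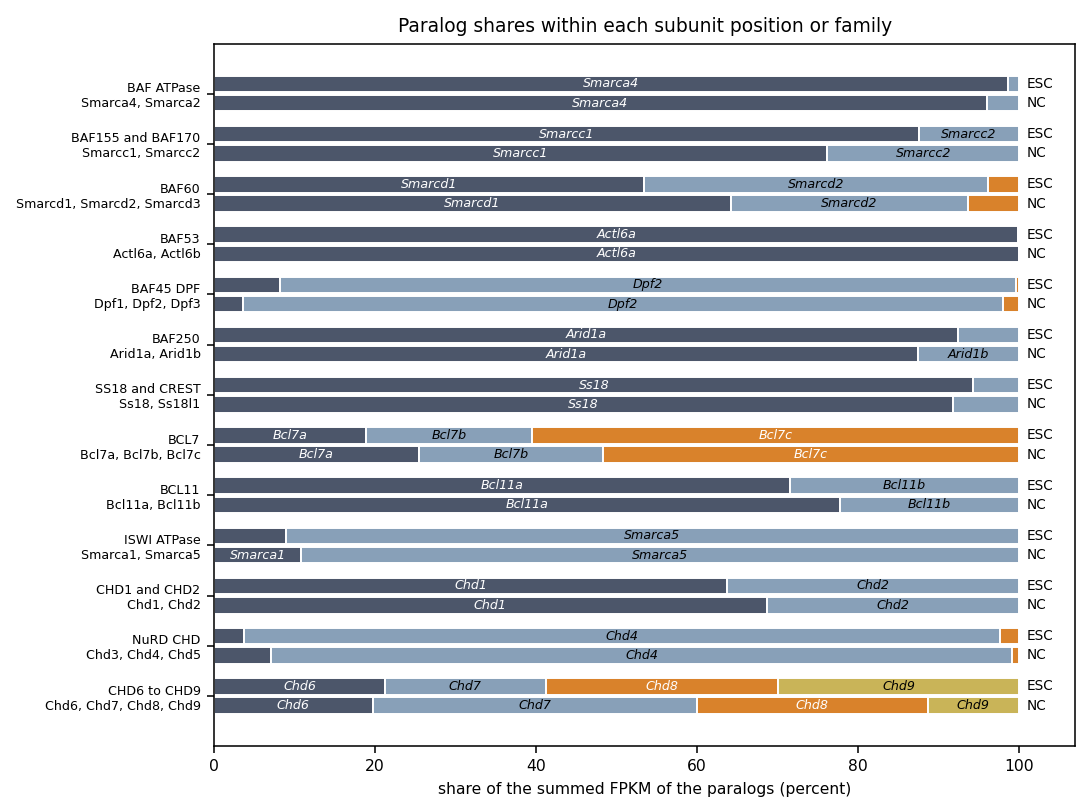
Share of the summed FPKM held by each paralog within its subunit position or family, in percent, with ESCs in the upper and NCs in the lower bar of each pair and segments in the order of the gene names at the left. The main paralog was the same in both states except among CHD6 to CHD9, where the largest segment was Chd9 (29.9%) in ESCs and Chd7 (40.3%) in NCs.

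The ISWI ATPases, which space nucleosomes, were close in the 2 states. Smarca5 (SNF2H) was at 54.9 FPKM in ESCs, compared with 58.1 FPKM in NCs, and Smarca1 (SNF2L) at 5.38 FPKM and 7.07 FPKM. Of the 50-base words of Smarca5, 28.2% also occur in the gene model Gm13135.

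In the first CHD subfamily, Chd1, which binds methylated H3K4 and supports the open chromatin of ESCs, was at 24.5 FPKM in ESCs against 25.5 FPKM in NCs. Chd2, a gene linked to epileptic encephalopathy, was at 14.0 FPKM and 11.6 FPKM, and 18.4% of its exon bases overlap 1810026B05Rik on the same strand. Both were within 1.5-fold.

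In the NuRD subfamily the abundant ATPase was similar and the minor paralogs differed in opposite directions. Chd4 (Mi-2β) was at 96.3 in ESCs and 106 FPKM in NCs, the highest level of the 44 genes in NCs. Chd3 (chr11:69343273-69369406; Mi-2α) was at 3.82 FPKM in ESCs, compared with 8.10 FPKM in NCs, 2.12-fold higher (log2 ratio 1.08). Chd5 (chr4:152338651-152390194), a paralog of neurons and testis, was at 2.45 FPKM in ESCs against 0.919 FPKM in NCs, 2.67-fold lower (log2 ratio -1.42). Chd3 made up 3.73% of the subfamily sum in ESCs and 7.07% in NCs, Chd5 2.39% and 0.802%, and Chd4 93.9% and 92.1%.

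In the third subfamily, the summed FPKM of Chd6 to Chd9 was 51.1 in ESCs and 48.9 in NCs, while its make-up differed. Chd7, mutated in CHARGE syndrome, was at 10.2 in ESCs and 19.7 FPKM in NCs (log2 ratio 0.95), and its share was 20.0% and 40.3%. Chd9 (chr8:90828352-91054516), described as a coactivator of nuclear receptors, was at 15.3 FPKM in ESCs, compared with 5.53 FPKM in NCs. It was 2.76-fold lower (log2 ratio -1.47), and its share was 29.9% and 11.3%. Chd9 ranked 18 of the 44 genes in ESCs and 32 in NCs, and Chd7 ranked 23 and 18. The β-catenin and CTCF partner Chd8, a gene linked to autism, was at 14.7 FPKM and 14.1 FPKM. Chd6 was at 10.8 FPKM and 9.63 FPKM. The log2 ratios of Chd6, Chd8, Chd2, Smarcc1, Bcl7c and Ss18l1 lay between -0.29 and 0, so the sign of each depends on how the columns are scaled.

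The ARID3 to ARID5 genes encode DNA-binding proteins outside BAF, and 1 of the 5 that reached 1 FPKM passed 2-fold. Arid5b (chr10:68092520-68278740), a partner of the histone demethylase PHF2, was at 14.9 FPKM in ESCs against 4.27 FPKM in NCs, 3.48-fold lower (log2 ratio -1.80). Arid3a, an E2F-binding factor, was at 7.97 in ESCs and 14.1 FPKM in NCs (1.77-fold), while Arid3b was at 23.2 FPKM in both. The retinoblastoma-binding genes Arid4a and Arid4b were at 6.08 FPKM and 9.39 FPKM in ESCs and at 4.47 FPKM and 11.2 FPKM in NCs. Arid3c was at 0.541 FPKM and 0.930 FPKM, and Arid5a at 0.867 FPKM and 0.648 FPKM. Without these 7 genes, 5 of 34 remodeler genes that reached 1 FPKM were higher (14.7%) and 3 were lower (8.82%), against 12.5% and 10.6% of all entries.

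Partner subunits and other remodeler ATPases were read from a list of 58 genes, of which 56 were matched in the table and all 56 reached 1 FPKM. In NCs 3 were at least 2-fold higher, 3 were at least 2-fold lower and 50 were within 2-fold. Their share past 2-fold was 10.7%, against 23.1% for the 39 remodeler genes and for all entries. The sets were not matched for level, and ratios past 2-fold were more frequent at low levels. In NCs the lowest level was 3.18 FPKM among the partner genes and 0.919 FPKM (Chd5) among the 39 remodeler genes. The difference between the remodeler and partner genes depended on the setting. It was wider on the same-total scale, at 30.8% of the remodeler genes, 8.93% of the partner genes and 25.1% of all entries. It was also wider with a 1.5-fold limit (41.0%, 19.6% and 40.0%) and without a filter (27.3%, 10.7% and 29.4%). The remaining settings brought the remodeler and partner genes closer. With a pseudocount of 1 FPKM the shares were 7.14% for the partner genes, 5.13% for the remodeler genes and 15.4% for all entries, and with at least 10 FPKM in either condition they were 8.51%, 10.3% and 15.5%. Median log2 ratios were 0.06 for the 5 BAF subunits that the symbols missed, -0.01 for 12 NuRD partners, 0.28 for 9 ISWI partners, -0.22 for 14 INO80 family genes, -0.24 for 13 other SNF2-type ATPases and -0.12 for 3 partners of CHD4 in the ChAHP complex. On the same-total scale each of these medians is 0.29 higher, as is that of all entries (-0.03 as deposited and 0.26 rescaled).

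Among the BAF subunits in this list, the 2 paralogs of the non-canonical complex lay in opposite directions. Gltscr1 was at 3.35 FPKM in ESCs, compared with 6.47 FPKM in NCs, and Gltscr1l at 9.88 FPKM and 3.58 FPKM (2.76-fold lower). The PBAF subunit Arid2 was at 17.3 FPKM and 18.5 FPKM, and the progenitor subunit Phf10 (BAF45a) at 55.6 FPKM and 57.9 FPKM. Of the NuRD partners only the methyl-CpG binder Mbd2 passed 2-fold, at 7.89 FPKM in ESCs against 22.8 FPKM in NCs (2.89-fold). Its paralog Mbd3, which binds methylated CpG poorly, was at 85.4 FPKM and 92.3 FPKM. Among the BAZ proteins that pair with ISWI ATPases, Baz1a was at 6.58 in ESCs and 13.6 FPKM in NCs, and Baz2b at 3.44 FPKM and 7.29 FPKM, both past 2-fold. Baz2a (TIP5), the rDNA-silencing partner, was at 63.9 FPKM and 29.9 FPKM, 2.14-fold lower. The helicase-like factor Hltf was at 21.3 FPKM and 10.0 FPKM (2.12-fold lower).

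**Figure D4:**
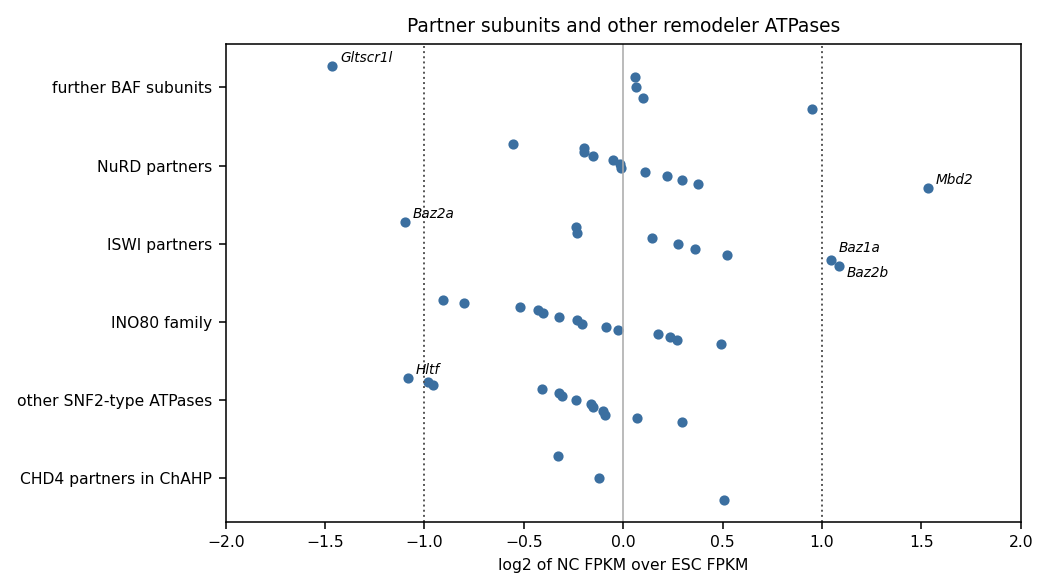
Log2 of the NC over the ESC FPKM for 56 partner and other remodeler genes, 1 point per gene in rows by complex, with dotted lines at 2-fold and the genes past them named. Of these genes 50 lie between the dotted lines, and Mbd2 and Gltscr1l lie farthest out.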

How the data were processed

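Total RNA was isolated from 3 ESC and 3 NC samples, and libraries prepared from it with the TruSeq RNA kit were sequenced. The authors mapped the reads to mm10 with TopHat2 (2.0.8) run on Bowtie2 (2.1.0), assembled and normalized transcripts with Cufflinks 2.0.2, merged them with Cuffmerge and ran Cuffdiff, whose version is not given in the sources used here. The deposited table holds the authors' FPKM, 1 value per gene and condition over 3 samples, with no value per sample from which an error could be computed. Its 5 other value columns (the authors' Cuffdiff comparison, as a test statistic, a fold change on the log2 scale, p-value, q-value and a significance call) and the test status were not used, so no ratio given here carries a test.

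NC to ESC ratios were computed without a pseudocount (Python 3.11.15, numpy 2.4.6, pandas 2.3.3). A gene counted as higher or lower when it reached 1 FPKM in either condition and its ratio was at least 2 in that direction. Alternatives were pseudocounts of 0.1 and 1 FPKM, other filters, a 1.5-fold limit and centring. The level classes (limits 10 and 30 FPKM) and the rescaling to the same total were chosen after seeing the data. The genes and lists were chosen with earlier results of these data known. Every gene matched by symbol is given, and genes of the partner and marker lists may be named. Gene positions and exon overlaps came from GENCODE M21 (GRCm38, the same build as mm10) and promoters from RefSeq.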

Additional observations from a re-analysis of the deposited data

How the results depend on the processing

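With a pseudocount of 1 FPKM, 0 genes were at least 2-fold higher in NCs and 2 were lower (Arid5b and Chd9), in place of 5 and 4 (all entries 8.08% and 7.33%), and 1 partner gene was higher in place of 3. Without a filter 7 of 44 genes were lower (all entries 13.2%). With at least 1 FPKM in both conditions 3 of 36 were higher (7.45%), and with at least 10 FPKM in either condition 1 of 29 was higher (6.97%) and 2 were lower (8.49%), the percentages being those of all entries. A 1.5-fold limit gave 10 higher genes of 39 (all entries 20.6%) and 7 lower partner genes of 56 (19.4%). Rescaling to the same total gave 9 higher genes (adding Arid3a, Brd9, Chd7 and Smarce1), 1 lower partner gene, and a median log2 ratio of 0.43 for the remodeler genes beside 0.26 for all entries. Under the other pseudocounts, filters and centring that median was between 0.11 and 0.19. Adding 1 FPKM to each paralog turned 2 pairs of share differences (NC minus ESC, percentage points): Actl6a from 0.0413 to -0.371, Actl6b from -0.0413 to 0.371, Bcl11a from 6.23 to -4.26, and Bcl11b from -6.23 to 4.26. Both pairs hold genes below 1 FPKM. Dpf1 also left the lower genes with a pseudocount of 0.1 FPKM (log2 -0.97). The fits without each replicate and with a replicate block were not run. No paired analysis was possible because the deposited table gives 1 value per condition and no value per sample. By the estimated fragment numbers, depth limits Actl6b (about 15.0 in ESCs and 3.46 in NCs) and the ESC value of Dpf3 (about 34.3). The NC number was taken at the larger of the 2 NC steps, which held fewer values, and it would be larger at the smaller step.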
